A study of Mus musculus with 6 samples.

Results

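The genes described here encode the contractile apparatus of myofibroblasts and smooth muscle cells. They are 10 genes chosen by name (Acta2, Tagln, Cnn1, Actg2, Myh11, Myl9, Tpm1, Tpm2, Cald1 and Lmod1), and all 10 were present among the 16894 genes of the deposited table. Bulk RNA-seq covered 3 libraries of control (non-senescent) FAPs and 3 of senescent FAPs. FAPs, fibroadipogenic progenitors, are mesenchymal cells of the muscle interstitium, here sorted from hindlimb muscles of adult C57BL/6 mice (male and female animals were used) as CD45-/CD31-/α7-integrin-/SCA-1+ cells and cultured with serum and bFGF at low oxygen. Senescent FAPs had received 20 μM of etoposide, a topoisomerase poison that breaks DNA, for 48 h and were then kept in normal medium for 5 days, while a vehicle for the control cultures is not given in the sources used here. The labels do not say whether the replicates came from separate animals, so the p values measure the spread between these libraries, which may be technical.

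When fibroblasts or FAPs are cultured on a stiff surface or meet TGF-beta, they can become myofibroblasts, which assemble smooth muscle actin into stress fibres and pull on the matrix. Contraction needs an actin filament, a myosin motor with its light chains, and proteins that bind the filament and set its access to myosin. Many of these genes are targets of serum response factor (SRF), which binds a DNA element named the CArG box together with the myocardin-related coactivators MRTF-A and MRTF-B, and these coactivators enter the nucleus when free actin monomers run low.

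Genes received 41412179 to 59912520 reads per library, and a single read was worth 0.0167 to 0.0225 CPM. Levels are given as CPM, reads scaled to a common library size, which already include edgeR's scaling between libraries. Senescent and control FAPs were set against each other by limma, fitted to log2(CPM + 0.5) for all 14776 genes that passed a filter on low values, and a gene was called at a Benjamini-Hochberg adjusted p under 0.05 over all of them. Log2 fold changes are senescent minus control and lie on that scale. Over all genes 21.8% were called higher and 24.3% lower (3218 and 3592 genes). With division by library totals in place of the deposited scaling, 5056 were called higher and 1933 lower, and the median log2 fold change of all genes moved from −0.03 to 0.17.

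The labelled cell type was checked against marker lists. All 10 FAP markers were detected, among them Pdgfra at 126 to 238 CPM in control and 182 to 254 CPM in senescent libraries. Ly6a, which encodes SCA-1, was at 220 to 456 and 538 to 678 CPM. Some were low, with Lum at 0.179 to 0.951 and 3.14 to 3.51 CPM and Pi16 at 2.93 to 4.38 and 5.04 to 5.54 CPM. Of the 10, 7 were called higher in senescent FAPs, 0 lower and 3 did not pass, beside 21.8% higher and 24.3% lower over all genes. Lum, 1 of the 7, passed the filter on low values only through the senescent libraries, which favours a call in that direction. The summed level of the 10 was 1985 to 2252 CPM in control and 3029 to 3470 CPM in senescent libraries. Gsn was the largest single part of it, at 761 to 937 and 1463 to 1505 CPM. Pericyte markers, some of which fibroblasts also express, summed to 1455 to 1574 CPM in control and 1236 to 1287 CPM in senescent libraries. Most of this came from Pdgfrb, at 943 to 1070 and 846 to 876 CPM, and Cspg4, at 250 to 357 and 156 to 176 CPM. The 6 leukocyte markers measured summed to 13.3 to 16.0 CPM in control and 29.8 to 36.3 CPM in senescent libraries, with 4 called higher. Itgam, 1 of these 4, had 3, 0 and 0 reads in the control libraries. It passed the filter only through the senescent libraries, which favours a call in that direction. Ptprc and Adgre1 of this list were not in the deposited table. The 4 endothelial markers measured summed to 17.95 to 38.4 and 22.2 to 29.2 CPM, and Tie1 and Emcn were not in the table. Of 16 striated muscle and myogenic genes, 12 were not in the deposited table, among them the defining markers Pax7, Myod1, Myog and Ckm. The 4 that could be read, with 1 called lower, summed to 21.6 to 39.9 CPM in control and 10.2 to 16.3 CPM in senescent libraries. The gene called was the actin gene Acta1, which also made up most of the sum, at 17.1 to 34.7 and 8.01 to 11.9 CPM. The part of pericytes, leukocytes, endothelial and muscle cells in the changes of the contractile genes was not tested. In bulk RNA, fewer cells of a type and less RNA per cell cannot be told apart.

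Contractile mRNA made up a smaller part of the measured mRNA in senescent than in control FAPs. Amounts per cell were not measured. Of the 10 genes, 8 were called lower and 0 higher, against 24.3% of all genes called lower, and the other two, Myh11 and Cald1, did not pass the test. The largest falls were in Cnn1, Actg2 and Acta2, whose senescent means were 32.1%, 32.4% and 36.0% of the control means, and the smallest called fall was in Tpm2, at 60.1%. In all 8 called genes the 3 senescent libraries lay below the 3 control libraries, a separation that 30.9% of all genes tested showed in this direction and 57.4% in either. All 10 log2 fold changes were negative, as were 52.7% of those of all genes. The median log2 fold change of the 10 genes was −0.95, beside −0.03 for all genes. Together the 10 genes took 1.07% to 1.53% of the control reads and 0.658% to 0.862% of the senescent reads.

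**Figure D1:**
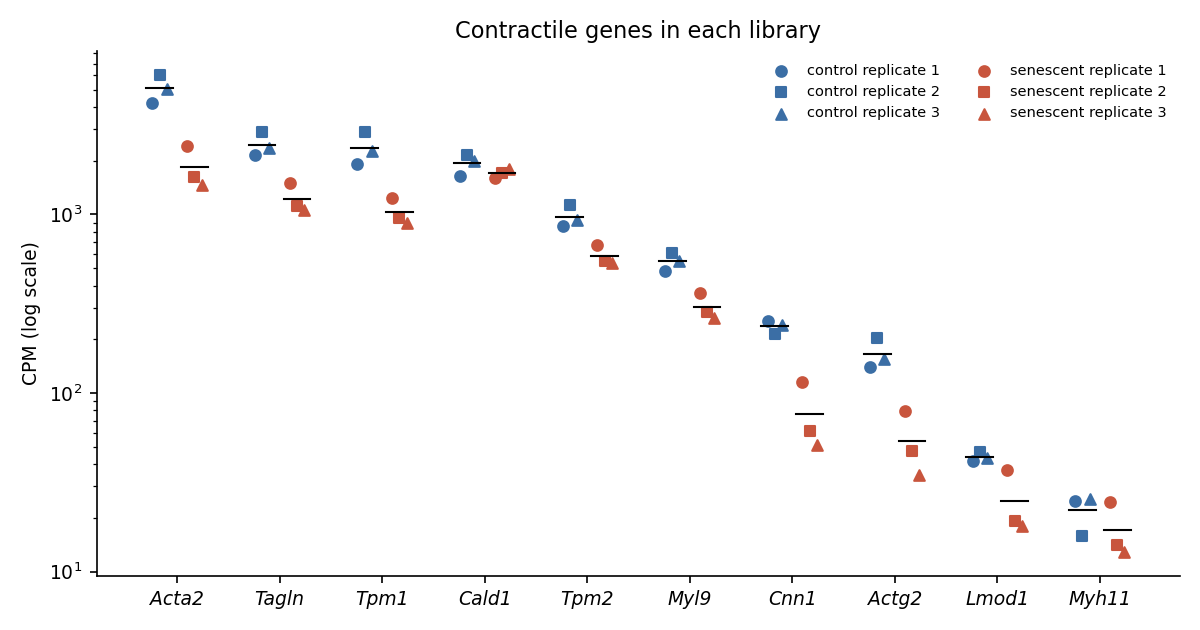
Level of each contractile gene in CPM (log axis) in the 6 libraries, with symbols for replicate numbers and black bars for group means (n = 3). The red senescent points lie below the blue control points for every gene but Cald1 and Myh11, where the groups overlap.

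Since SRF is known to bind many of these genes, their promoters were searched for the CArG box. RefSeq windows (GRCm38.p6, the assembly that the mm10 build named by the submitters corresponds to) were at hand for 7 of the 10 genes in 8 windows, and the 250 bases before the start were read. The box is palindromic in form, so a match on either strand is counted once. An exact box was found in 1 of the 8 windows, against 1.47% of all 32851 windows, and a box with at most 1 mismatch in 5 of the 8, against 18.6%. The element CATTCC, read on both strands, was in 4 of the 8 and in 12.6% of all windows. None of the boxes overlapped a CATTCC. The boxes of Acta2, Myl9, Tpm1 and Lmod1, which fell, and of Cald1, which did not pass the test, are printed on the strand of the gene, with the 10 bases of the box in capitals, to let them be compared.
Acta2, bases −84 to −75, chr19:34255438-34255467, minus strand: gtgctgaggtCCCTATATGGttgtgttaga
Acta2, bases −34 to −25, chr19:34255388-34255417, minus strand: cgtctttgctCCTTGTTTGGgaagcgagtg
Myl9, bases −161 to −152, chr2:156775293-156775322, plus strand: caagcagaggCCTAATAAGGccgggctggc
Myl9, bases −99 to −90, chr2:156775355-156775384, plus strand: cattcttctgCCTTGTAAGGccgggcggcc
Tpm1, bases −221 to −212, chr9:67049415-67049444, minus strand: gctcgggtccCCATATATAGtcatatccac
Tpm1, bases −80 to −71, chr9:67049274-67049303, minus strand: acaagcttttCCAAAAAAGTattggctgtc
Lmod1, bases −189 to −180, chr1:135324614-135324643, plus strand: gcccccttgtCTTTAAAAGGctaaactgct
Lmod1, bases −164 to −155, chr1:135324639-135324668, plus strand: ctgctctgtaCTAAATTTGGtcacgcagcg
Cald1, bases −203 to −194, chr6:34598291-34598320, plus strand: acggtttcaaGCTTTTTAGGacttggtttt

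Positions count back from the RefSeq start. The exact box is the first of Myl9, and each other box has 1 mismatch. In GENCODE M21, which starts some transcripts farther upstream, both boxes of Acta2 and the second of Tpm1 fall in an untranslated exon, and the others lie upstream of the gene. The windows of Cnn1 and Tpm2, which also fell, and 1 of the 2 windows of Cald1 held no box at up to 1 mismatch. These matches describe sequence and were not measured as binding.

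Acta2 encodes α-smooth muscle actin, the defining protein of myofibroblasts (GENCODE M21 on GRCm38, chromosome 19, 34241090 to 34255590, minus strand). It had 4213, 6067 and 5008 CPM in control replicates 1, 2 and 3 and 2431, 1617 and 1459 CPM in senescent replicates 1, 2 and 3. The lowest control library was thus 1.73 times the highest senescent one. The means were 5096 ± 930 and 1836 ± 522 CPM (SD, n = 3 each), a log2 fold change of −1.49 (standard error 0.23, limma adjusted p = 0.00203). Per kilobase of exon, Acta2 was among the most abundant transcripts of the cells, with a rank from 4 to 12 in control and from 18 to 30 in senescent libraries among 14026 genes with a known length.

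Actg2 encodes γ-smooth muscle actin, the isoform of visceral smooth muscle (chromosome 6, 83512905 to 83536265, minus strand). Its control libraries had 139, 204 and 154 CPM, and its senescent libraries 78.9, 47.5 and 34.9 CPM. The groups were apart, and senescent replicate 1 was again the closest to the controls. The log2 fold change was −1.68 (standard error 0.28, limma adjusted p = 0.00271). Acta2 and Actg2 are close paralogs, so counting could have moved some reads between them. Whether such reads had a part in the fall of Actg2, which went in the same direction as that of Acta2, was not tested. Per kilobase, the control level of Actg2 was 107 ± 21.9 CPM (SD, n = 3), far under the 2320 ± 423 CPM of Acta2.

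The contractile actins were also compared with the other actin isoforms. Cytoplasmic β- and γ-actin, Actb and Actg1, were also called lower, with log2 fold changes of −0.70 and −0.63 (limma adjusted p = 0.00734 for Actb and 0.00435 for Actg1). Acta2 accounted for 42.4%, 47.8% and 47.7% of the reads on the 5 actin genes measured in control replicates 1 to 3 and for 37.5%, 31.8% and 29.7% in senescent replicates 1 to 3. This share does not depend on the scaling between libraries. It averaged 46.0% ± 3.08 and 33.0% ± 4.0 (SD, n = 3 each), a difference of −13.0 percentage points, for which an exact two-sided permutation gave p = 0.1, the lowest value that this number of libraries can reach. The share of Actb went from 33.95% ± 2.21 to 41.9% ± 2.06 and that of Actg1 from 18.3% ± 0.904 to 24.0% ± 2.22 (SD, n = 3 each; exact permutation p = 0.1 for each). Acta1, the skeletal muscle actin, held 0.163% to 0.350% of the actin reads in control and 0.159% to 0.184% in senescent libraries.

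**Figure D2:**
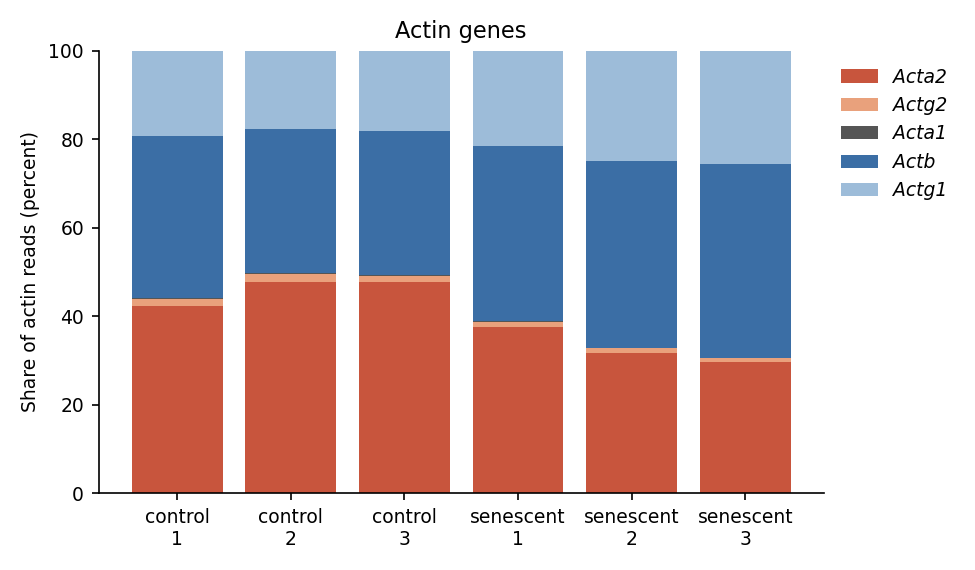
Share of the reads on 5 actin genes (percent, stacked to 100) in each of the 6 libraries. Acta2 takes 42.4% to 47.8% in control and 29.7% to 37.5% in senescent libraries, while the cytoplasmic actins Actb and Actg1 take the rest apart from small shares of Actg2 and Acta1.

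The motor side of the apparatus is encoded by Myh11, the smooth muscle myosin heavy chain that marks mature smooth muscle, and Myl9, a regulatory light chain whose phosphorylation starts contraction. Myh11 (chromosome 16, 14194535 to 14291372, minus strand) had 24.9, 15.9 and 25.4 CPM in control replicates 1 to 3 and 24.5, 14.1 and 12.9 CPM in senescent replicates 1 to 3. The groups overlapped, with senescent replicate 1 level with the higher controls and control replicate 2 near the lower senescent libraries. Its log2 fold change of −0.38 did not pass the test (95% interval −1.01 to 0.25, limma adjusted p = 0.280). Without senescent replicate 1 the log2 fold change was −0.66 (limma adjusted p = 0.0482), and with limma's array weights, which give aberrant libraries less weight, −0.71 (adjusted p = 0.00435), so whether this gene was called depended on the weight given to single libraries. Myh11 was also the least abundant of the 10 genes per kilobase, at 2.91 ± 0.705 CPM in control and 2.26 ± 0.841 CPM in senescent FAPs (SD, n = 3 each).

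Myl9 (chromosome 2, 156775420 to 156781658, plus strand) had 482, 609 and 549 CPM in control and 362, 286 and 263 CPM in senescent libraries. The groups did not overlap. The means were 547 ± 63.1 and 303 ± 51.9 CPM (SD, n = 3 each), with a log2 fold change of −0.86 (standard error 0.14, limma adjusted p = 0.00247). Myh9 and Myh10, the heavy chains of nonmuscle myosin II, fell by 0.82 and 0.62 on the log2 scale (limma adjusted p = 0.00275 and 0.00554).

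Among the proteins that bind the actin filament, Cnn1, Tagln and Lmod1 are used as markers of smooth muscle differentiation. Cnn1, calponin 1, inhibits the myosin ATPase (chromosome 9, 22099216 to 22109630, plus strand). It had 252, 215 and 241 CPM in control libraries, a narrow range, and 116, 60.9 and 51.0 CPM in senescent libraries, where replicate 1 was the highest. The lowest control library was 1.86 times the highest senescent one. The log2 fold change of −1.72 (standard error 0.27, limma adjusted p = 0.00210) was the lowest of the 10 genes.

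Tagln, transgelin or SM22α, crosslinks actin filaments (chromosome 9, 45929619 to 45936058, minus strand). The control libraries had 2150, 2887 and 2342 CPM and the senescent libraries 1503, 1119 and 1059 CPM. All senescent values lay below all control values. The log2 fold change was −1.01 (standard error 0.18, limma adjusted p = 0.00330). Exons of Tagln share 108 bases with Pcsk7 and 1241 bases with the antisense gene Gm48529 on the opposite strand, and since the use of strand in counting is not given in the sources used here, reads of these genes may not have been kept apart.

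Lmod1, leiomodin 1, nucleates actin filaments in smooth muscle (chromosome 1, 135324807 to 135368065, plus strand). It had 41.8, 46.5 and 43.2 CPM in control and 37.0, 19.1 and 18.1 CPM in senescent libraries. Senescent replicate 1 lay close under the lowest control library, which was 1.13 times higher. The log2 fold change was −0.89 (standard error 0.25, limma adjusted p = 0.0218). This call was the least stable of the 8, since the adjusted p from limma was 0.0533 with division by library totals, 0.0547 without control replicate 3, 0.0820 without senescent replicate 2 and 0.0797 without senescent replicate 3.

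Tropomyosins lie along the actin filament and control its access to myosin, and caldesmon, encoded by Cald1, binds actin, tropomyosin and myosin and restrains contraction. Tpm1 (chromosome 9, 67022590 to 67049406, minus strand) had 1908, 2896 and 2253 CPM in control and 1241, 958 and 896 CPM in senescent libraries. Its groups did not overlap, and its log2 fold change was −1.18 (standard error 0.19, limma adjusted p = 0.00233). Tpm2 (chromosome 4, 43514711 to 43523765, minus strand) had 861, 1124 and 932 CPM in control and 671, 549 and 532 CPM in senescent libraries. It was also apart between groups, with a log2 fold change of −0.73 (standard error 0.14, limma adjusted p = 0.00422).

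Cald1 (chromosome 6, 34598500 to 34775473, plus strand) was not called. It had 1648, 2165 and 1980 CPM in control and 1598, 1700 and 1808 CPM in senescent libraries. The groups overlapped, and senescent replicate 1 was the lowest of its group here, where in the other 9 genes it was the highest. The log2 fold change was −0.17 (95% interval −0.49 to 0.14, limma adjusted p = 0.328), and its sign turned to 0.18 with quantile normalization and to 0.038 with division by library totals. Tpm1, Tpm2 and Cald1 each give rise to muscle and nonmuscle isoforms by alternative splicing and promoter use, and the values per gene do not separate them.

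**Figure D3:**
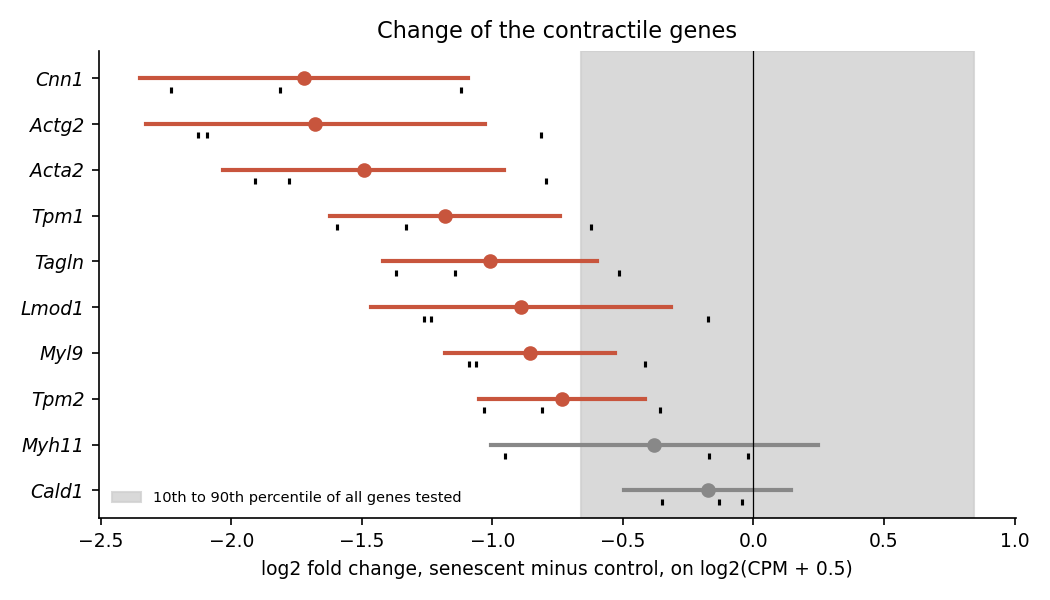
Log2 fold change (senescent minus control, on the log2(CPM + 0.5) scale) of each contractile gene with its 95% interval from limma, red where the adjusted p was under 0.05 and grey elsewhere. Small ticks are the differences of same-numbered libraries, and the grey band spans the 10th to 90th percentile of all genes tested. Cnn1, Actg2 and Acta2 lie farthest below 0, and the intervals of Myh11 and Cald1 reach 0.

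A stricter call asks for a change of more than 1 on the log2 scale and p below 0.01 before adjustment. By it 5 of the 10 genes were lower (Acta2, Tagln, Cnn1, Actg2 and Tpm1) and 0 higher, against 3.90% of all genes lower and 6.93% higher. With quantile normalization, and likewise with division by library totals, 3 remained past this threshold, Acta2, Cnn1 and Actg2. Relative to the median of all genes in the latter setting, the log2 fold change was −1.45 for Acta2, −0.96 for Tagln and −0.13 for Cald1.

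The senescent libraries were not alike. Senescent replicate 1 was the highest of the 3 senescent libraries in 9 of the 10 genes, against 38.3% of all genes tested. Replicate 3 was the lowest in 9, a count whose share over all genes was not computed. Relative to the control mean, Acta2 stood at 47.7% in senescent replicate 1, 31.7% in replicate 2 and 28.6% in replicate 3, and Cnn1 at 49.1%, 25.8% and 21.6%. Lmod1 was spread the most by this measure among the called genes, from 84.4% in replicate 1 to 43.6% and 41.2% in the other two. Among the controls, replicate 2 was the highest in 8 of the 10 genes, against 38.9% of all genes tested. Differences between same-numbered libraries were negative for all 10 genes in all 3 pairs, and the share over all genes was not computed for this either. In size these differences were smallest in replicate 1 for all 10 genes, against 35.7% of all genes tested.

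**Figure D4:**
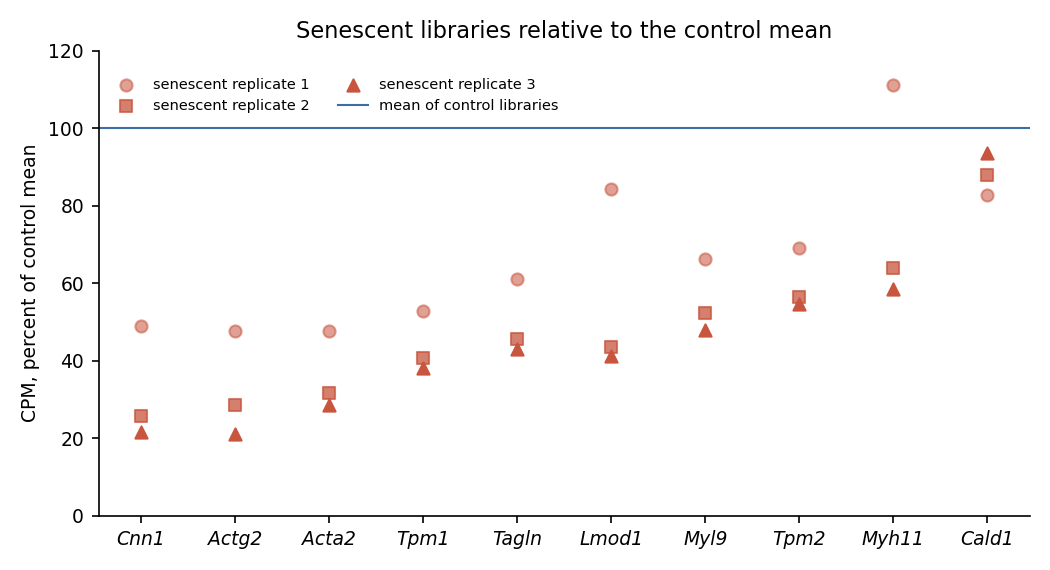
Level of each contractile gene in the 3 senescent libraries as a percent of the mean of the control libraries (blue line at 100). The circles of senescent replicate 1 lie above the squares and triangles of replicates 2 and 3 in all genes but Cald1, and only the circle of Myh11 lies above the control mean.

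Most contractile genes have relatives in the same protein family, many of which build the actin and myosin network of all cells. Of 15 such relatives, named cytoplasmic counterparts here, 11 were called lower, 2 higher (Myl12b and Tmod1) and 2 did not pass. Over all genes 24.3% were called lower and 21.8% higher. The median log2 fold change of the 15 was −0.60. Tmod1 was near the floor, at 0.268 to 0.503 CPM in control and 0.913 to 1.82 CPM in senescent libraries. It passed the filter only through the senescent libraries, which favours a call in that direction. With the filter at 2 CPM, 1 counterpart was called higher. Tagln2, the broadly expressed relative of Tagln, fell from 438 ± 85.1 to 156 ± 38.0 CPM (SD, n = 3 each; limma adjusted p = 9.56e-04). With quantile normalization 7 of the 15 were called lower, and 8 with division by library totals. The counterparts Cnn2 and Cnn3 of calponin fell by 0.92 and 0.43, the tropomyosin genes Tpm4 and Tpm3 by 0.60 and 0.34, and the myosin light chain genes Myl6 and Myl12a by 0.65 and 0.36. Tmod3, a tropomodulin related to leiomodin, had 82.7 ± 9.08 CPM in control and 85.9 ± 10.1 CPM in senescent FAPs (SD, n = 3 each; limma adjusted p = 0.725).

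The ratio of a contractile gene to each listed counterpart of its family was compared within libraries, for all 19 pairs, a comparison added after the values were seen. The ratio was lower in senescent FAPs in 16 pairs, and in 14 of them the groups did not overlap. Most genes enter several pairs, so the pairs are not independent. The share without overlap among ratios of other genes was not computed, and among single genes it was 57.4% in either direction. The log2 ratio of Acta2 to Actb was 0.44 ± 0.19 in control and −0.35 ± 0.24 in senescent FAPs (SD, n = 3 each), a difference of −0.79, and the difference was −0.87 against Actg1. The size depended on the counterpart for other genes. For Cnn1 the difference was −0.81 against Cnn2 and −1.30 against Cnn3, and for Tpm1 −0.84 against Tpm3 and −0.59 against Tpm4. For Myl9 it was −0.50 against Myl12a, −1.50 against Myl12b, which rose, and −0.20 against the essential light chain gene Myl6, where the groups overlapped. For Lmod1 it ranged from −2.79 against Tmod1 to −0.96 against Tmod3. The value against Tmod1 rests on only 12 to 28 Tmod1 reads per control library. The ratio of Tagln to Tagln2 differed the other way, by 0.49, and those of Myh11 to Myh9 and Myh10 by 0.43 and 0.23 with overlapping groups. Each of the 15 pairs without overlap had a two-sided exact permutation p = 0.1, the smallest possible, or 0.127 adjusted over the 19 pairs, so none passed the threshold.

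Among 14 other smooth muscle genes measured, 7 were called lower, 3 higher and 4 did not pass. Over all genes 24.3% were called lower and 21.8% higher, so the count called higher is near that share. The median log2 fold change of the 14 was −0.46. Those that fell included Csrp2, a LIM protein of smooth muscle (−1.66), Aoc3, an amine oxidase abundant in smooth muscle and adipocytes (−1.39), Smtn, which encodes smoothelin (−1.25), and Mylk, the kinase that phosphorylates Myl9 (−1.17). Smtn had 269, 210 and 209 CPM in control and 133, 86.9 and 75.9 CPM in senescent libraries (limma adjusted p = 0.00255). The 3 that rose were Synm, an intermediate filament protein (1.83), Synpo2 (0.58) and Ppp1r12b, a subunit of myosin phosphatase (0.50). Des, which encodes desmin, had 2.02 to 10.1 CPM in control and 6.59 to 7.90 CPM in senescent libraries and did not pass (limma adjusted p = 0.415).

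Stress fibres are anchored at focal adhesions. Of the 16 genes of this list, 9 were called lower, 0 higher and 7 did not pass, with a median of −0.60. Over all genes 24.3% were called lower and 21.8% higher. With the replicate number as a block, 11 were called lower and 1 higher. Itga5, the fibronectin receptor subunit, had the lowest log2 fold change (−1.23, limma adjusted p = 8.06e-04), and Flna, which encodes filamin A, fell from 4552 ± 494 to 2553 ± 324 CPM (SD, n = 3 each; limma adjusted p = 0.00520). With quantile normalization or division by library totals, 3 of these genes were called higher and 8 lower.

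Upstream of the contractile genes lies the pathway from RhoA to SRF. Of 14 genes of the RhoA, MRTF and SRF pathway measured, 4 were called lower, 0 higher and 10 did not pass, with a median log2 fold change of −0.25. The count called lower is near the 24.3% of all genes called lower. Srf had 101, 137 and 98.4 CPM in control and 92.9, 74.7 and 74.0 CPM in senescent libraries, a log2 fold change of −0.47 (limma adjusted p = 0.0348). Mkl1, which encodes MRTF-A, fell by 0.37 (limma adjusted p = 0.0160), while Mkl2, which encodes MRTF-B, had a log2 fold change of 0.23 (adjusted p = 0.120). Myocd, the myocardin of mature smooth muscle, was at 1.47 to 2.40 CPM in control and 1.21 to 1.67 CPM in senescent libraries. With the replicate block 5 of these genes were called lower and 1 higher, with quantile normalization 1 and 1, and with division by library totals 0 and 2. Without control replicate 3, and likewise without senescent replicate 2, 2 were called lower.

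Of 15 myofibroblast matrix and TGF-beta genes, 5 were called lower, 1 higher and 9 did not pass, beside 24.3% lower and 21.8% higher over all genes. With the replicate block 7 were called lower and 1 higher. The collagen I genes Col1a1 and Col1a2 fell by 2.29 and 1.67 on the log2 scale, the ligand gene Tgfb3 fell by 0.68, and the receptor gene Tgfbr2 rose by 0.60. Ctgf had 3218 ± 634 CPM in control and 3438 ± 317 CPM in senescent FAPs (SD, n = 3 each; limma adjusted p = 0.652). Pericytes, which surround capillaries, also carry some contractile genes. Of 9 pericyte markers tested, Rgs5 and Notch3 were called higher, Cspg4 and Mcam lower and 5 did not pass (3 higher and 2 lower with the replicate block, and 2 higher and 1 lower without senescent replicate 2 or without senescent replicate 3), and the defining marker Rgs5 was at 0.759 to 1.88 CPM in control and 3.53 to 5.72 CPM in senescent libraries.

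**Figure D5:**
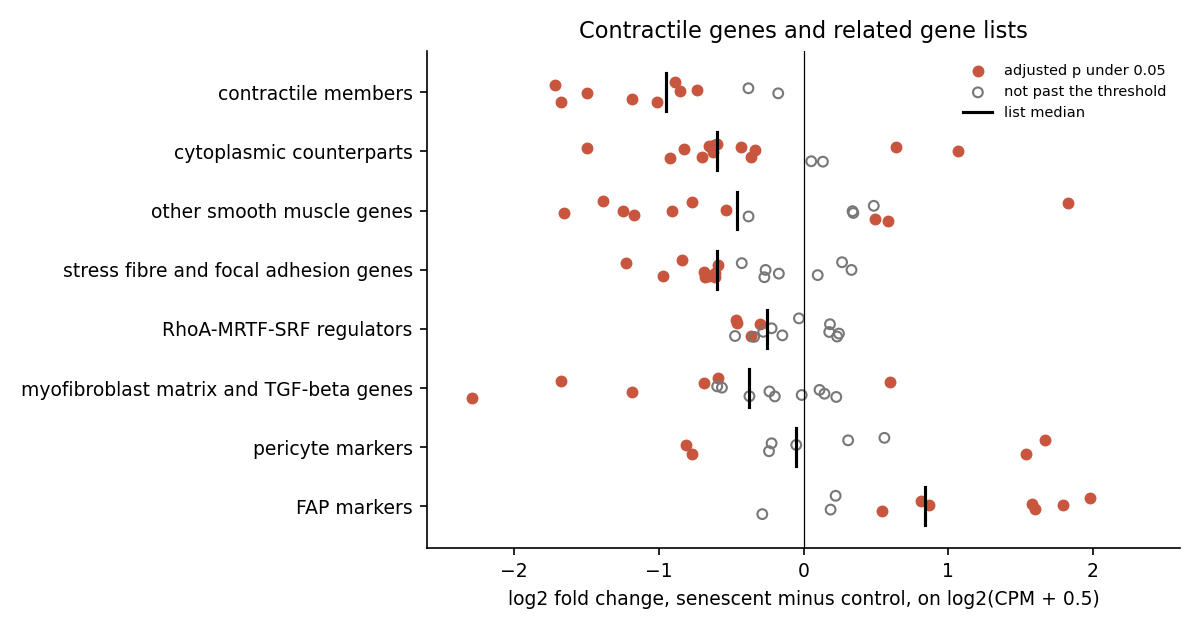
Log2 fold change (senescent minus control, on the log2(CPM + 0.5) scale) of the genes in 8 lists, 1 point per gene, filled where the adjusted p from limma was under 0.05, with a black bar at each list's median. Among these 8 lists the contractile genes have the lowest median, at −0.95, and the FAP markers the highest, at 0.84. Of the lists not drawn, the leukocyte markers have a median of 1.27, the endothelial markers 0.18 and the striated muscle and myogenic genes −0.49.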

How the data were processed

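Stranded mRNA libraries of 3 control and 3 senescent FAP cultures were sequenced by the authors on an Illumina HiSeq instrument. The deposited table holds 1 signal value per gene and library, CPM of the effective library size from edgeR. Per the submitters' processing notes, edgeR was version 3.10 in R 3.6.0 on build mm10. The aligner, counting tool, annotation and filter on low counts are not given in the sources used here. Dividing by the step between low values gave whole reads for 100% of values (tolerance 0.001 reads). A line naming no gene, with 0.0041% to 0.0070% of reads, was left out. All columns of values belonged to the 6 libraries.

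The filter kept a gene if 3 or more libraries reached 0.5 CPM. Log2(CPM + 0.5) was fitted in limma 3.58.1 under R 4.3.3, two-sided, with a trend in the variance. The plan assumed plain CPM, and the same test was kept. Shares and ratios were tested with SciPy 1.17.1. Lengths and places came from GENCODE M21, and 94.9% of the genes tested had a length. The limma step was tested on simulated data of this comparison. Deviations from group means correlated between same-numbered libraries (0.54, 0.31 and 0.21 across genes for replicates 1, 2 and 3), so the numbers may pair the cultures, a hint from the data. Of the unmatched libraries, control 2 and senescent 3 correlated at 0.15, and the others at −0.36 to −0.03. The main fit and the permutation tests over 6 libraries were unpaired, and pairing entered only as an alternative. The 10 genes and all lists were chosen with earlier results of these data known. Genes named are the 10, genes of the lists that passed the test, with paralogs first, defining markers, and the 5 genes most like Acta2. List genes named that did not pass were chosen after their values were seen. Alternatives were pseudocounts of 0.1 and 1, no filter or 2 CPM, 3 other scalings, leaving out each library, the replicate block, no trend, array weights, edgeR 4.0.16 and DESeq2 1.42.0 on recovered reads.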

Additional observations from a re-analysis of the deposited data

How the results depend on the processing

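Of 190 log2 fold changes (10 genes, 19 alternatives), 182 kept their direction and side of the threshold. With quantile normalization and with division by library totals, Cald1 turned to 0.18 and 0.038, and the genes past an unadjusted p under 0.01 and a change beyond 1 went from 5 to 3. Of 8 genes called lower, 7 kept the call in all 19 alternatives, while Lmod1 lost it in 4 and Myh11 gained it in 2. The number of genes called lower was 7 to 9 with each library left out, and that past the stricter threshold 4 to 6. The difference in the Acta2 share of actin reads was −15.2 to −11.4 percentage points with each library left out and −13.0 over same-numbered pairs (exact p = 0.25, the smallest that 3 pairs allow). The replicate block changed no call among the 10 genes, while among the related lists it moved the counts of 4, given beside them. On simulated counts the false share of calls was slightly above the threshold for limma and edgeR's quasi-likelihood test and far above it for DESeq2. There limma also missed part of the genes changed by 1 on the log2 scale. Far fewer genes were changed in the simulation than were called in the data, so these shares may not carry over. Among the related lists, the regulators of the RhoA, MRTF and SRF pathway called lower went from 4 to 0 with division by totals, 1 with quantile normalization, 2 with no variance trend, without control replicate 3 or without senescent replicate 2, and 8 with array weights, and over all genes those called higher went from 3218 to 2130 without senescent replicate 2. The causes were not tested. With 574 to 319039 reads per gene and library, counting error is small beside the spread between 3 libraries.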

Other observations

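Among 9100 genes with a mean of at least 10 CPM, those whose log2 level was most like that of Acta2 over the 6 libraries were Gm6180, Myl9, Tmed1, Tagln and Flna, with Pearson's r from 0.998 to 0.999. These are descriptions over 6 libraries that fall into 2 groups and share their scaling. Within groups, after the group means were taken out, the order was Myl9, Gm6180, Ppp4c, Mrvi1 and Tagln, with r from 0.988 to 0.997. Tpm1, Tpm2 and Actg2 had r of 0.95 or more by both measures, from 0.956 to 0.995. Cald1 (0.58 over the libraries and 0.18 within groups) and Myh11 (0.55 and 0.36) were the least like Acta2 of the 10 genes. Mrvi1, which encodes a partner of the cGMP-dependent kinase in smooth muscle, had a log2 fold change of −0.51, and Tmed1, a transport protein of the early secretory pathway, one of −0.47.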
